A study of Mus musculus with 6 samples.

Results

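The cytosolic ribosomal proteins are the protein components of the ribosome of the cytoplasm, and their transcripts were followed here in 2T3 mouse pre-osteoblasts, either held static or turned in a rotating wall vessel. Members were chosen by gene symbol: every probe set that the platform's probe table assigns to a single symbol made of Rpl or Rps and a digit, or to Rpsa, Rplp0, Rplp1 or Rplp2, without pseudogenes and without the ribosomal S6 kinases. This gave 106 probe sets of 50 genes, among the 18193 genes that have a probe set of their own on the array. The large subunit was represented by 48 probe sets of 26 genes and the small subunit by 57 probe sets of 23 genes. The remaining probe set belongs to Rps19bp1, a binding partner of Rps19 that fits the symbol pattern but is not part of the ribosome. Rplp1, Rpl3, Rpl5 and Rpl35a are not analysed here. A further 110 probe sets are assigned jointly to a ribosomal protein and to other genes, and were not counted as members.

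Ribosomal proteins assemble with ribosomal RNA into a large and a small subunit, and the cell makes most of them in matched amounts. Their transcripts are abundant in growing cells, and most start with a run of pyrimidines, the terminal oligopyrimidine tract, through which the mTOR pathway controls their translation. Several genes have a close copy that encodes an alternative protein, such as Rps27l for Rps27 and Rpl22l1 for Rpl22.

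Total RNA was hybridised to 1-colour Affymetrix arrays, with 3 arrays of each group. 2T3 is a clonal pre-osteoblast line from mouse calvaria that carries a viral T antigen, and the cells were at passage 8 to 10 in both groups. The static group spent 3 days without rotation, and the rotated group spent 3 days in the rotating wall vessel, a turning, fluid-filled chamber used on the ground to imitate microgravity. Only the sample titles separate the groups: the source fields of static 2 and static 3 name simulated microgravity, and the letter R in the other titles was read as rotated. All 6 samples name the vessel as the simulator, so what held the static cells is not clear from the labels. Whether the samples were separate cultures is not stated, so the p-values measure the spread between these 3 samples a group, which may be technical. In bulk RNA, fewer cells of a type and less RNA per cell cannot be told apart.

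Array medians of the deposited signal ran from 70.0 to 130.1, and the highest was that of static 1. Rotated 1 stood apart by its ratio of 3' over 5' actin signal, a measure of RNA integrity, which was 3.21 against 1.29 to 1.57 on the other 5 arrays. The same ratio for Gapdh did not set it apart, at 0.875 in rotated 1, 0.867 in static 1 and 0.748 to 0.793 on the rest. Levels below are log2(signal + 16.6) after quantile normalization, unless another scaling is named, and differences are log2 rotated minus static with limma's moderated standard error. Of the 106 member probe sets 98, of 47 genes, passed the filter on dim signal and were tested together with all others, 27022 in all. The 8 that did not pass had deposited signals between 1.6 and 99.4, and they hold the only single-symbol probe sets of Rpl3l, Rps4l and Rps16. Rps16 is also listed by bright, jointly assigned probe sets that were tested, with static means of 14.65 and 14.80. For a gene with several tested probe sets, the probe set with the highest mean represents it.

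Sequence around the annotated start is shown for the genes whose values are described most closely below: Rps27 and Rps27l, Rpl22l1, Rpl39 and Rpl39l, and Rps25, beside Rps6 and Rpl35 as examples of genes with smaller differences. Each line gives 70 bases before and 30 bases after the start, 5′ to 3′ on the transcribed strand, from RefSeq in build GRCm38. Capitals mark the longest run of C and T between 25 bases before and 30 bases after the start. For Rps27l the first of 2 listed starts is used, and the marked run is the first of 2 runs of that length in the window.
Rps27: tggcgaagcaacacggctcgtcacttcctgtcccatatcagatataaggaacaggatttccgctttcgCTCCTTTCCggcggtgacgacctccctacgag
Rps27l: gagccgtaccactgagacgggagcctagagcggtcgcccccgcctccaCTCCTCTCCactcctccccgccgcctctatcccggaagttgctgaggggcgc
Rpl22l1: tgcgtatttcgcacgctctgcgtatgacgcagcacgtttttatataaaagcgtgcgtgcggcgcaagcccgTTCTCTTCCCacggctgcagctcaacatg
Rpl39: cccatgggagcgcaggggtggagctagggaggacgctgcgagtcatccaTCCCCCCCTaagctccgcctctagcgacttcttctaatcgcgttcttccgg
Rpl39l: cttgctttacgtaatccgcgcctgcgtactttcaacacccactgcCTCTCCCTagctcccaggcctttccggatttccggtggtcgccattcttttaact
Rps25: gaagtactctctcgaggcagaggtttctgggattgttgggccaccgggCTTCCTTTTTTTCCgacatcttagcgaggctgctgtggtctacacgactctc
Rps6: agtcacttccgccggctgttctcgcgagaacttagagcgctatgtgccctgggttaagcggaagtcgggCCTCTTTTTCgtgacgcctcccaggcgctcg
Rpl35: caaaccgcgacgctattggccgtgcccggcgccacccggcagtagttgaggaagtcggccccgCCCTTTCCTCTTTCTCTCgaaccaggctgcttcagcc

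These stretches lie at chr3:90213619-90213718 on the minus strand for Rps27, chr9:66946016-66946115 on the plus strand for Rps27l and chr3:28805438-28805537 on the plus strand for Rpl22l1. Those of Rpl39 and Rpl39l lie at chrX:37085193-37085292 on the minus strand and chr16:10170158-10170257 on the plus strand. Rps25 is at chr9:44407644-44407743 on the plus strand, Rps6 at chr4:86857338-86857437 on the minus strand and Rpl35 at chr2:39005102-39005201 on the minus strand. The marked runs were 18 bases long in Rpl35, 14 in Rps25, 10 in Rps6 and Rpl22l1, 9 in Rps27, Rps27l and Rpl39, and 8 in Rpl39l. The edge of the window cuts the run of Rpl39l. Those of Rps27l, Rpl39, Rpl39l and Rps25 end before the annotated start. A marked run is therefore not always at the start of the annotated transcript.

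Sequence was found for 44 of the 50 genes. A run of 8 or more pyrimidines in that window was present in 22 of these 44, against 20.7% of the 27025 genes of the RefSeq table, and the median longest run was 7.5 bases against 5. The letters CCGGAA, the core that factors of the ETS family bind, were present on either strand of the 300 bases around the start in 26 of 44 members (59.1%), against 15.2% of all genes. TATAAA, searched in the same way, was present in 5 (11.4%), against 14.2% of all genes. These motifs cannot overlap each other, and CCGGAA on both strands at once was counted as 1 gene. Annotated starts can lie away from the start the cell uses, and a match of letters is a description of these windows only.

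With quantile normalization ribosomal protein transcripts stood at nearly the same level in static and rotated cells, while the members' median difference was 0.26 with the values as deposited and 0.40 with median centring. Over the 98 tested probe sets the median log2 difference was 0.07, with quartiles of -0.04 and 0.24, beside a median of 0.03 and quartiles of -0.27 and 0.31 over all 27022. It was 0.07 for the 46 probe sets of the large subunit and 0.06 for the 51 of the small subunit. With 1 probe set per gene the medians were -0.02 over 25 genes of the large subunit and 0.07 over 21 of the small one, so that of the large subunit differs in sign between these summaries. After Benjamini-Hochberg adjustment in limma 0 member probe sets passed at 0.05, as did 0 of all probe sets (0.0% called), and the smallest adjusted p of a member was 0.491, that of Rps27. At an unadjusted p under 0.05 there were 8 members higher in the rotated samples, where 4.34% of all probe sets were called in that direction, and 1 lower, where 3.90% were. The 8 are probe sets of Rps25, Rpl22l1, Rps27l, Rpl13a, Rpl39l and Rpl39, with 2 for Rpl27, and the lower one is that of Rps27. Rotated values lay above static ones without overlap in 12 members, against 7.83% of all probe sets, and below them in 5, against 7.27%. The higher count at an unadjusted p under 0.05 was 5 without static 3, 5 without rotated 1 and 4 without rotated 2, and the lower count was 2 without rotated 2 or without rotated 3. The count over all probe sets also changed between these fits, with its range given below, so these numbers are not read as results about the members. With array weights, which were highest in static 3 (3.32) and rotated 2 (2.55), 21 were higher and 3 lower, together 24.5% of the members against 19.0% of all probe sets under the same weights, and Rps27 passed (adjusted p 0.049).

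The interval of each difference describes the spread left after quantile normalization, which gives every array the same values at the same ranks. How far that step narrows the intervals of bright members was not tested. The interval does not cover the choice of scaling, under which the members' median ran from 0.07 to 0.40 with median centring. The 95% interval lay between -1 and 1, within a 2-fold change either way, for 79 of the 98 members (80.6%), against 44.7% of all probe sets. For 56 members (57.1%) it lay within a 1.5-fold change either way, against 7.43% of all probe sets. With 1 probe set per gene, 42 of 47 genes had intervals within a 2-fold change, against 54.1% of 12554 genes, and 34 within a 1.5-fold change, against 10.1%. Of these 47 genes 8 were above without overlap, against 8.30%, and 4 below, against 7.11%. The probe sets and genes set beside the members were not matched by level, and the spread within groups was smaller in brighter probe sets. In the 56 members with a mean level of 14 or more the median standard deviation within groups was 0.11, and 52 had intervals within the 1.5-fold bounds. In the 20 members with a mean level under 10 it was 0.48, and 0 had intervals within those bounds. The 22 members between these levels had a median difference of 0.34 and held 7 of the 8 probe sets that were higher at an unadjusted p under 0.05, beside a median of 0.02 in the 56 bright ones.

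**Figure D1:**
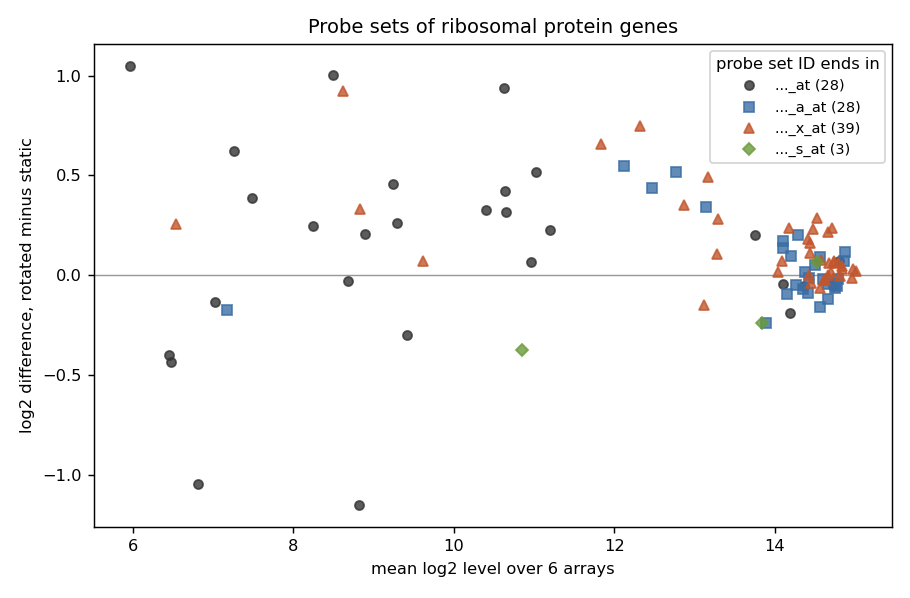
Each point is 1 of the 98 tested probe sets of ribosomal protein genes, with its mean log2 level over the 6 arrays on the horizontal axis and its log2 difference, rotated minus static, on the vertical axis; symbols separate the kinds of probe set ID. The 56 probe sets at a level of 14 or more lie between -0.19 and 0.29, while dimmer probe sets spread from -1.15 to 1.05.

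The size of the shift of the members as a whole depended on how the arrays were scaled. With quantile normalization 63 of the 98 members (64.3%) had a difference above 0, against 52.6% of all probe sets. With the values as deposited 85 of the same 98 (86.7%) were above 0, against 47.0% of all tested probe sets. The members' median was then 0.26, while that of all tested probe sets was -0.03. With median centring 89 (90.8%) were above 0, against 59.4% of all tested probe sets, and the medians were 0.40 and 0.10. Quantile normalization gives every array the same values at the same ranks.

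Array by array, the mean level of the members against the static mean was 0.01, 0.03 and -0.04 in static 1, static 2 and static 3, and 0.17, 0.10 and 0.05 in rotated 1, rotated 2 and rotated 3, with quantile normalization. All rotated values lay above the static ones, rotated 3 by a small margin. With the values as deposited the static arrays stood at 0.08, 0.01 and -0.10, and rotated 1, rotated 2 and rotated 3 at 0.46, 0.22 and 0.02. On that scale rotated 3 lay within the static range, while each rotated array lay above the static array of its own number, by 0.37, 0.21 and 0.11. With median centring the static arrays stood at -0.39, 0.28 and 0.10 and the rotated ones at 0.46, 0.33 and 0.31. Rotated 1 was highest under each scaling, and its actin ratio was 3.21, the part of which in the result was not tested. The members' median was 0.06 in a fit that included that ratio, and without static 1 and rotated 1 together it was 0.05, both with quantile normalization. The share of the summed deposited signal that fell on the 106 member probe sets was 4.34%, 4.10% and 3.90% in the static arrays and 5.32%, 4.76% and 4.14% in the rotated ones, so rotated 3 again lay within the static range, and each rotated share lay above the static share of its own number, by 0.978, 0.658 and 0.241 percentage points.

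**Figure D2:**
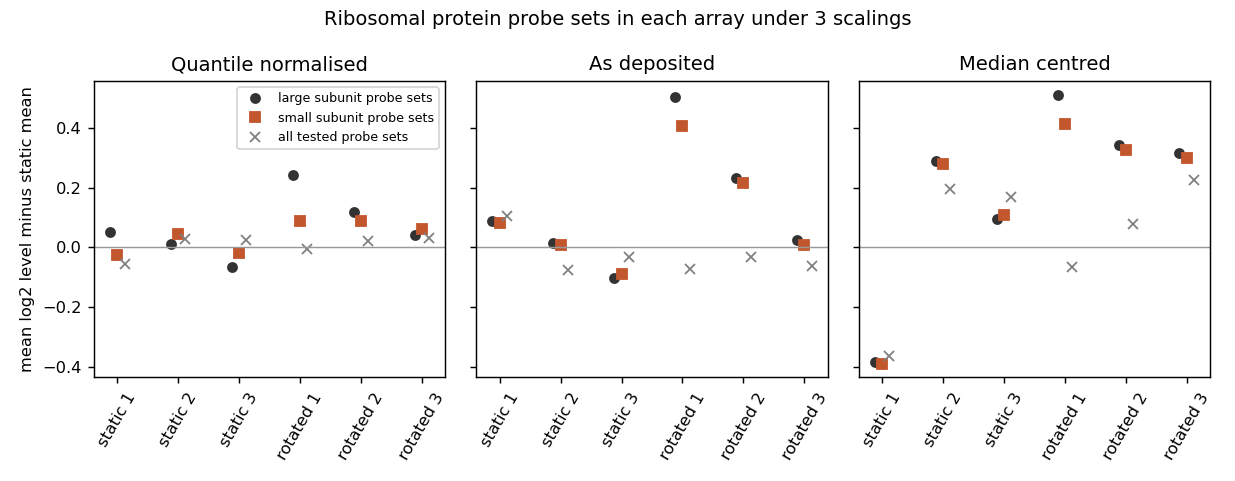
The panels show 3 scalings of the same arrays; each point is the mean log2 level of the large subunit probe sets (46), the small subunit probe sets (51) or all tested probe sets (27022) in 1 array, minus the mean of the static arrays. With the values as deposited the subunits move together, from about 0.50 (large) and 0.41 (small) in rotated 1 to 0.024 (large) and 0.0097 (small) in rotated 3.

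In the large subunit, Rplp0, the base of the stalk that recruits elongation factors, stood at 14.72, 14.75 and 14.80 in static 1, static 2 and static 3 and at 14.47, 14.73 and 14.91 in rotated 1, rotated 2 and rotated 3. The groups overlap, and the difference was -0.05 ± 0.15 (SE), with a 95% interval of -0.38 to 0.28; with median centring it was 0.30. Rplp2, another stalk protein, differed by -0.12 ± 0.13 (interval -0.40 to 0.17), and by 0.26 with median centring. Rpl8, at the peptidyl transferase centre, differed by -0.07 ± 0.14, and by 0.25 with median centring. Rpl11, which can bind and restrain the p53 ligase Mdm2, stood at 14.06, 14.10 and 13.89 in the static arrays and 13.64, 13.88 and 13.80 in the rotated ones. Every rotated value of Rpl11 lay below the static ones, by a difference of -0.24 ± 0.15 (interval -0.57 to 0.09) that was 0.043 with median centring. Rpl19 differed by -0.19 ± 0.15 and by 0.12 with median centring, with groups that overlap.

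Rpl39, Rpl37 and Rpl14 stood higher by larger differences, with groups that overlap. Each rotated array lay above the static array of its own number for Rpl39 and Rpl14, but rotated 3 lay below static 3 for Rpl37. Rpl39, a very short protein of the exit tunnel, stood at 7.40, 8.75 and 7.81 in the static arrays and 9.40, 9.15 and 8.43 in the rotated ones. Static 2 lay above rotated 3, and the difference of 1.00 ± 0.40 was 0.51 without static 1 and rotated 1 together. A brighter probe set that the platform table assigns jointly to Rpl39 and a predicted gene stood at -0.15 ± 0.15 and is attributed to neither. Rpl37 stood at 10.98, 11.64 and 11.88 in the static arrays and 12.70, 12.08 and 11.70 in the rotated ones. Its difference of 0.66 ± 0.30 was 0.13 without static 1 and rotated 1 together. Rpl14 differed by 0.45 ± 0.27, and its value in rotated 1, 9.93, stood above those in rotated 2 and rotated 3, 9.27 and 9.20. Allowing for the actin ratio, the difference of Rpl14 was 0.10. Of the brighter probe sets assigned jointly to Rpl14 and a pseudogene, the lowest stood at 0.0015 and the others at 0.36 to 0.44. Of those assigned jointly to Rpl37 and Rpl37rt, the brighter ones stood at 0.08 and 0.34 and a dimmer one at -0.07. None of these is attributed to a single gene.

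Rpl27 and Rpl13a had probe sets that differed in size. Rpl27 is a globular protein of the large subunit, and 2 of its 3 probe sets stood higher in the rotated arrays without overlap, by 0.75 ± 0.23 and 0.55 ± 0.19. Its brightest probe set differed by 0.20 ± 0.14. Rpl13a, which also takes part in silencing of inflammatory transcripts in myeloid cells, had 4 probe sets with differences of 0.44 ± 0.16, 0.28 ± 0.16, -0.06 ± 0.13 and -0.09 ± 0.14. The pair with positive values was the dimmer one of the 4. Rpl35 had 6 tested probe sets, 5 of them between 0.17 and 0.24 and the dimmest at -0.40 ± 0.52.

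In the small subunit, Rps27 and Rps25 stood furthest from 0. Rps27, a zinc-binding protein, was 9.34, 9.22 and 9.62 in static 1, static 2 and static 3 and 8.39, 8.15 and 8.19 in rotated 1, rotated 2 and rotated 3. The groups do not overlap, and rotated 1 stood closest to the static arrays. The difference was -1.15 ± 0.24, 2.22-fold lower, with a 95% interval of -1.69 to -0.61 (limma, unadjusted p 0.00088, adjusted p 0.491). Over all alternatives it lay between -1.33 and -1.04, with an adjusted p between 0.049 and 0.9998. A brighter probe set assigned jointly to Rps27 and to Rps27rt, a retrotransposed copy, went the other way: 14.10, 14.07 and 14.05 in the static arrays and 14.60, 14.31 and 14.20 in the rotated ones. That difference was 0.29 ± 0.15, and the probe set is attributed to neither gene. Which transcripts each of these probe sets detects was not tested.

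Rps25, a protein that some viral and cellular messengers need for internal initiation, was 10.40, 10.13 and 9.95 in the static arrays and 11.56, 10.80 and 10.93 in the rotated ones. All rotated values lay above the static ones, rotated 1 the furthest. The difference was 0.94 ± 0.25, 1.92-fold higher, with an interval of 0.37 to 1.51 (limma, unadjusted p 0.0046, adjusted p 0.593), and allowing for the actin ratio it was 0.59. The brighter probe set that Rps25 shares with predicted genes stood at 0.10 ± 0.15.

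Other proteins of the small subunit differed less. Rps6, the substrate of the S6 kinases, stood at 10.37, 10.53 and 10.59 in the static arrays and 11.07, 10.61 and 10.75 in the rotated ones. These do not overlap, rotated 2 by a small margin, and the difference was 0.32 ± 0.21 (interval -0.15 to 0.79). It was 0.13 allowing for the actin ratio and 0.13 without static 1 and rotated 1 together. The 9 probe sets assigned jointly to Rps6 and a pseudogene ran from -0.60 to 0.64, and the 4 with a mean level of 14 or more from -0.04 to 0.16. Rpsa, the laminin receptor precursor that sits on the small subunit, differed by 0.07 ± 0.13, by 0.33 with the values as deposited and by 0.47 with median centring. Rps15 stood lower in every rotated array, rotated 3 by a small margin, with a difference of -0.16 ± 0.13 that was 0.20 with median centring. The other bright probe set of Rps15 differed by -0.05 ± 0.14, with groups that overlap. Rps18 stood higher in every rotated array, by 0.24 ± 0.13 (0.50 as deposited, 0.63 with median centring), with its other bright probe sets at 0.20 and 0.16. Of the genes mutated in Diamond-Blackfan anaemia, an inherited failure of red cell production, Rps19 differed by 0.10 ± 0.15, Rps24 by 0.06 ± 0.12, Rps7 by 0.09 ± 0.13, Rps26 by 0.05 ± 0.14 and Rps10 by -0.06 ± 0.16. The 95% intervals of these 5 genes lay between -0.43 and 0.43, and with median centring Rps10 stood at 0.29, Rps19 at 0.40, Rps26 at 0.43, Rps24 at 0.44 and Rps7 at 0.47. Rps19bp1, the binding partner, differed by 0.42 ± 0.25, and by 0.05 allowing for the actin ratio.

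**Figure D3:**
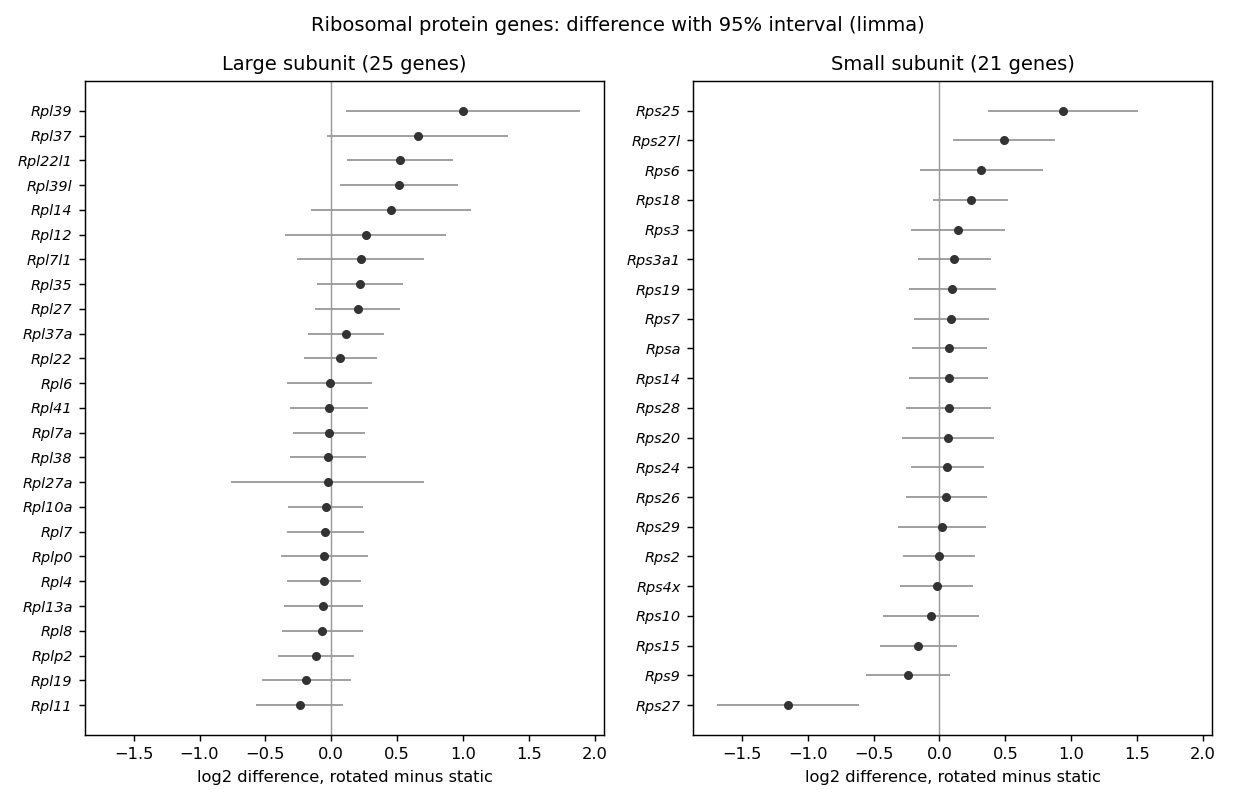
The panels show the 25 tested genes of the large subunit and the 21 of the small subunit, ordered by their log2 difference, rotated minus static (horizontal axis); points are limma estimates of 1 probe set per gene and bars are 95% intervals. Most points lie near 0, with Rps27 at -1.15 and Rps25 and Rpl39 at 0.94 and 1.00.

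Of the 6 alternative copies 4 were tested, and in 3 of these, Rps27l, Rpl22l1 and Rpl39l, every rotated value lay above the static ones, as in 8.30% of all genes. Rps27l, a target gene of p53, was 12.82, 13.09 and 12.86 in the static arrays and 13.56, 13.52 and 13.16 in the rotated ones. The groups do not overlap, with a difference of 0.49 ± 0.17, 1.40-fold higher (limma, unadjusted p 0.018, adjusted p 0.593). With median centring the difference of Rps27l was 0.74. Its other probe sets differed by 0.35 ± 0.21 and 0.34 ± 0.19, with groups that overlap. Rps27 went the other way in its single-gene probe set, and the difference between the genes was not tested.

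Rpl22l1, the copy of Rpl22, was 12.57, 12.51 and 12.45 in the static arrays and 13.26, 13.07 and 12.74 in the rotated ones. Every rotated value lay above the static ones, and rotated 3 was the closest to them. The difference was 0.52 ± 0.18, 1.43-fold higher (limma, unadjusted p 0.017, adjusted p 0.593), and it ranged from 0.33 allowing for the actin ratio to 0.76 with median centring. Rpl22 itself was 14.52, 14.48 and 14.50 in the static arrays and 14.57, 14.59 and 14.54 in the rotated ones, a difference of 0.07 ± 0.12 with groups that do not overlap. That of Rpl22 was 0.30 as deposited and 0.43 with median centring. The other Rpl22 probe sets stood at -0.05 ± 0.16 and -0.37 ± 0.31.

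Rpl39l, a copy of Rpl39 best known from the testis, was 10.74, 10.94 and 10.61 in the static arrays and 11.44, 11.30 and 11.10 in the rotated ones. The groups do not overlap, with a difference of 0.52 ± 0.20, 1.43-fold higher (limma, unadjusted p 0.028, adjusted p 0.599). Leaving out each array in turn gave 0.44 to 0.60 for Rpl39l. Rpl7l1, a copy of Rpl7 with a role in making ribosomes, differed by 0.22 ± 0.21 with groups that overlap (0.01 allowing for the actin ratio), beside -0.05 ± 0.13 for Rpl7, which stood at 0.21 with the values as deposited and at 0.35 with median centring. The only probe sets of Rpl3l, of muscle, and of Rps4l were too dim to be tested.

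**Figure D4:**
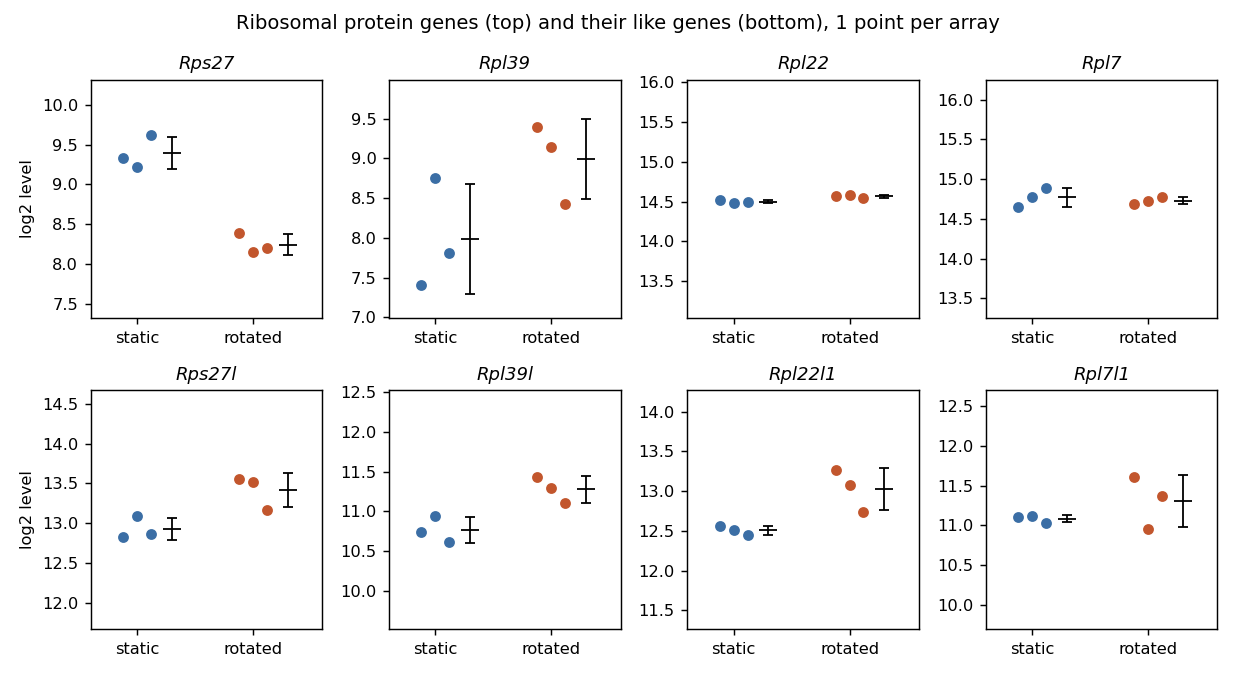
Log2 levels of 4 ribosomal protein genes (top) and their alternative copies (bottom), with 1 point per array (arrays 1 to 3 from left to right), and the mean with its SD (n = 3) beside each group; every panel spans 3 log2 units. The rotated points lie above the static ones for Rps27l, Rpl39l, Rpl22l1 and, by a small margin, Rpl22, and below them for Rps27.

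Probe sets of 1 gene did not always give the same difference. Among the 47 tested genes 21 had several tested probe sets, up to 6. Rps18 and Rps9 had probe sets that differed by more than 1 on the log2 scale. For Rps18 the values ran from -1.05 ± 0.49 for a dim probe set to 0.26 ± 0.43 for another dim one, with the 3 bright ones between 0.16 and 0.24. For Rps9 the brightest probe set stood at -0.24 ± 0.14, lower in every rotated array, and the dimmer ones at 0.92 ± 0.53 and 0.39 ± 0.37; the brightest one stood at 0.050 with median centring. Rpsa had a dim probe set at 1.05 ± 0.58, just above the threshold for dim signal (mean level 5.97 against 5.96), beside 0.07 for the bright one. Values also differed by kind of probe set: IDs ending in _x_at and _s_at mark probes that can match other sequences. The 28 probe sets with a plain _at ending had a median difference of 0.20, those ending in _x_at 0.07 (39 probe sets) and those ending in _a_at -0.02 (28 probe sets). The plain ones were also the dimmer ones, with a median standard deviation within groups of 0.32 against 0.17 and 0.12.

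**Figure D5:**
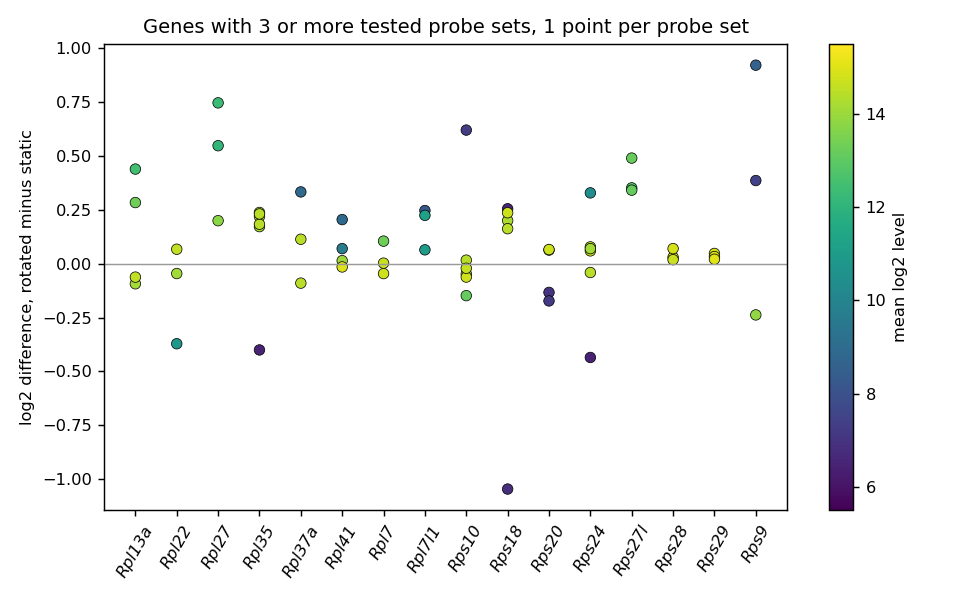
For the 16 genes with 3 or more tested probe sets, each point is 1 probe set, placed by its log2 difference, rotated minus static (vertical axis), and coloured by its mean log2 level. The brightest probe set of 15 of these genes lies between -0.24 and 0.24, that of Rps27l at 0.49, and values such as -1.05 for Rps18 and 0.92 for Rps9 come from dim probe sets.

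Other genes of translation gave a background for these values, with 1 probe set per gene, where 4.49% of 12554 genes were higher and 3.74% lower at an unadjusted p under 0.05 and 0 genes passed after adjustment in limma. Fau, which encodes a small subunit protein fused to a ubiquitin-like one and lies outside the symbol pattern, was 14.50, 14.23 and 14.38 in the static arrays and 13.17, 14.11 and 14.13 in the rotated ones. Its difference of -0.56 ± 0.25 (limma, adjusted p 0.606) was carried most by rotated 1, which lay furthest below. Among 17 measured transcripts of other genes known to start with a pyrimidine tract, such as elongation factors, 0 were higher and 0 lower at an unadjusted p under 0.05, with a median of -0.02. The nucleolar protein gene Npm1 (0.34 ± 0.19), Eef1d (-0.25 ± 0.17) and Eif3f (-0.27 ± 0.24) stood furthest by p.

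Of 24 measured initiation factors 1 was higher, Eif5b, the factor that joins the subunits (0.64 ± 0.27), and 0 were lower, with a median of 0.07. Of 66 measured ribosome biogenesis genes 4 were higher and 1 lower, with a median of 0.20, and 52 had a difference above 0 (all genes 53.3%). Among them Nop10, part of the particle that modifies ribosomal RNA, stood at 0.68 ± 0.20, the methyltransferase gene Nop2 at 0.76 ± 0.27 and Noc4l at 0.84 ± 0.34, while the lower one, the ribosomal RNA transcription factor gene Ubtf, stood at -0.66 ± 0.28. Of 76 mitochondrial ribosomal protein genes 2 were higher, Mrps6 (0.74 ± 0.21) and Mrpl52 (0.72 ± 0.25), and 0 lower, with a median of 0.06 and Mrpl54 at -0.65 ± 0.30. Of 25 measured genes of the growth signals that act on ribosomal protein synthesis 3 were higher and 0 lower, with a median of 0.02. These were Mknk2, a kinase of the cap-binding factor (0.71 ± 0.23), Eif4ebp2, a repressor of it (0.61 ± 0.23), and Eif2ak4, the sensor of amino acid shortage (1.07 ± 0.41). Adjusted p in limma was 0.593 for these 3.

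All 7 measured osteoblast markers of 10 listed had a mean that was lower in the rotated arrays, as had 46.7% of all genes. Of these markers, 4 were lower at an unadjusted p under 0.05, against 3.74% of all genes, with adjusted p in limma of 0.593 to 0.606. Ibsp (-0.55 ± 0.47), Alpl (-0.28 ± 0.47) and Pth1r (-0.35 ± 0.94) had mean levels of 6.37 to 6.74, near the dim threshold of 5.96. Col1a1, the main collagen of bone, was 13.32, 13.13 and 13.47 in the static arrays and 11.66, 12.67 and 13.23 in the rotated ones. Its groups overlap. The osteoblast factor gene Sp7 differed by -0.84 ± 0.34. Runx2, Bglap and Spp1 are not analysed here. The summed deposited signal of the osteoblast list was 54315 to 60059 in the static arrays and 37490 to 52656 in the rotated ones. Of the markers of other cell types, the summed signal of the adipocyte list was 5597 to 8032 in the static arrays and 4836 to 5337 in the rotated ones (3 of 5 markers tested), with Fabp4 at -0.59 ± 0.23. Of the chondrocyte list 4 of 5 markers passed the filter on dim signal, of the myocyte list 2 of 5, of the macrophage list 4 of 6, of the endothelial list 1 of 5 and of the epithelial list 2 of 5. The summed signals of these 5 lists lay between 111.9 and 3137 on all arrays, with static and rotated ranges that overlap. Their part in the ribosomal protein values was not tested.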

How the data were processed

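The deposited table holds 1 linear intensity per probe set and array for 45101 probe sets. On all arrays a mean trimmed by 2% at both ends equals 500, so the deposited intensities carry a common scaling. How probes were summarised is not given in the sources used here, and detection calls were not used. The 20th percentile of all values, 16.6, was added before log2. Array medians differed by 85.9%, above a tolerance of 10%, so arrays were quantile normalized. Left out were 64 controls and probe sets with a mean under the 40th percentile. Rotated and static arrays were fitted by limma 3.58.1 (R 4.3.3; lmFit, then eBayes with trend; two-sided; 3 against 3), with Benjamini-Hochberg adjustment over all 27022 probe sets. Precision is limited by the number of arrays.

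The platform table gave 1 symbol to 34945 of 45037 probe sets, several to 932 and none to 9160; symbols were updated through gene identifiers in the RefSeq gene table of assembly GRCm38.p6, which changed 0 member symbols. Named genes were the top 8 by p among higher and among lower ones, Rps6, Rps19bp1, stalk, anaemia and alternative-copy genes, those whose probe sets differed by over 1, and up to 3 of each other list; Rpl27, Rpl35 and the jointly assigned probe sets were added after their values were seen. Members, lists and alternatives were chosen with earlier results of these data known. Deviations from the group mean correlated at 0.196, 0.313 and 0.334 between samples of the same replicate number and at -0.19 to -0.09 otherwise. The numbers were therefore taken to pair the samples in the replicate block, an alternative fit. The reported fit, with its p-values and intervals, has no pairing term. What a number marks is unstated in the labels. The highest correlation between 2 arrays was 0.974, and all were counted as separate samples. The limma step was tested on simulated data.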

Additional observations from a re-analysis of the deposited data

How the results depend on the processing

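The members' median difference, 0.07, kept its sign under every alternative run. It was 0.26 with the values as deposited, 0.40 with median centring and 0.20 with plain _at probe sets only; for the large subunit these were 0.22, 0.35 and 0.20, and for the small subunit 0.30 and 0.43 with both scalings. Member probe sets higher at an unadjusted p under 0.05, 8 in the reported fit, numbered 4 with median centring, 3 without the intensity trend, 21 with array weights, 5 without static 1 and rotated 1 together, 2 with the actin ratio as a covariate, 3 among plain _at probe sets and 4 to 10 when each array was left out in turn. Lower ones numbered 2 as deposited, 3 with array weights and 1 to 2 when each array was left out. Shares of all probe sets by direction are not given for these alternative fits. The counts by direction are therefore not read as results about the members. After adjustment 1 member passed with array weights. Over all probe sets 22 passed with array weights and 2 with the replicate block, and the count at an unadjusted p under 0.05, 2227 in the reported fit, was 1352 with median centring, 5139 with array weights, 3955 with the replicate block, 701 with the actin covariate and 1092 to 3364 when each array was left out. With the replicate block 12 of the 98 members were higher and 1 lower at an unadjusted p under 0.05, and no member passed after adjustment. The 3955 of all 27022 probe sets under that block count both directions. Its unadjusted limma p was 0.00082 for Rps25, 0.0465 for Rpl14 and 0.087 for Rpl37, against 0.0046, 0.126 and 0.058 in the reported fit. Of 549 recomputed differences of 28 named genes, 15 reversed. With median centring these were Rpl11 (0.043), Rpl13a (0.32), Rpl19 (0.12), Rpl7 (0.35), Rplp0 (0.30), Rps15 (0.20) and Rps9 (0.050), and as deposited Rpl7 (0.21) and Rps15 (0.064). With the mean over probe sets they were Rpl13a (0.14), Rps18 (-0.038) and Rps9 (0.36), and with plain _at probe sets Rps10 (0.62), Rps18 (-1.05) and Rps9 (0.39). A further 24 sign changes concern values within their standard error. The cause of these changes was not tested. The limits are 3 arrays a group, signals without detection calls, and wide intervals for dim probe sets.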

Other observations

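The 110 probe sets that the platform table assigns jointly to a ribosomal protein and other genes were outside the members, and 106 of them were tested. Their median log2 difference was 0.08, beside 0.07 for the members. At an unadjusted p under 0.05 there were 8 higher in the rotated arrays, against 4.34% of all probe sets, and 1 lower, against 3.90%. The rotated values lay above the static ones without overlap in 19 (17.9%), against 7.83% of all probe sets, and below them in 0, against 7.27%. For the members these numbers were 12 of 98 (12.2%) above and 5 (5.10%) below. Probe sets of this kind share sequence with each other and with members, so they are not separate evidence.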
